A study of Mus musculus with 9 samples.

Results

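Complex I genes, the nuclear genes whose symbol starts with Nduf, were followed across 9 mouse hearts. The symbol alone chose them: every listed gene starting with Nduf was taken, without processed pseudogenes named with -ps, of which 0 were listed. This gave 45 of the 43154 listed genes. They comprised 7 core subunits, 29 accessory subunits, 7 assembly factors (Ndufaf1 to Ndufaf7) and, counted apart, Ndufa4 and its paralog Ndufa4l2. All 45 were at 1 FPKM or more in every heart, with values from 6.75 to 1339 FPKM (a level per length of transcript and per size of the library). So all 45 passed the filter on low values, 1 FPKM in at least 2 hearts.

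The hearts came from C57BL/6 mice. Transgenic mice expressed calcineurin A from the α-myosin heavy chain promoter (MHC-CnATg), which drives the transgene in cardiomyocytes. Of the transgenic hearts, 3 were from vehicle-treated mice and 2 from mice given JIB-04, an inhibitor of Jumonji histone demethylases, at 50 mg/kg and 3 doses a week. Dosing began when the mice were 4 weeks old. The 4 wild type hearts had vehicle alone, and no wild type heart given JIB-04 was among the hearts. Transgenic vehicle heart 1, JIB-04 heart 1 and wild type hearts 1 and 2 were taken at postnatal day 125. Transgenic vehicle hearts 2 and 3, JIB-04 heart 2 and wild type hearts 3 and 4 were taken at day 158.

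Complex I passes electrons from NADH to ubiquinone in the inner mitochondrial membrane and pumps protons while doing so. It is L-shaped. The matrix arm holds the flavin, the iron-sulfur clusters and the ubiquinone site, and the membrane arm holds the proton channels, whose core subunits are encoded by mitochondrial DNA. Accessory subunits surround this core. Assembly factors help to build the complex and are not part of the finished enzyme. Cardiomyocytes are dense in mitochondria, and complex I is a main entry point for electrons from fat and carbohydrate oxidation in heart.

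Absolute read depth is unknown, but from the spacing of low FPKM values the other 8 libraries had 1.141 to 1.505 times the depth of wild type heart 1. By this estimate every transgenic library (1.257 to 1.505) was deeper than every wild type library (up to 1.223). Depth thus went with genotype, and its part in the differences was not tested. Ppp3ca, which encodes a calcineurin A catalytic subunit, was at 22.9 to 24.8 FPKM in wild type and at 199 to 1762 FPKM in transgenic hearts. The lowest transgenic value, 199 FPKM, was in transgenic vehicle heart 3, and the next was 1434 FPKM. Transgenic vehicle heart 3 and JIB-04 heart 2 also stood apart in 3 mitochondrial genes (mt-Atp6, mt-Co3, mt-Atp8), which were high there and listed at 0 in the other 7 hearts. Wild type heart 2 alone had both mt-Co1 and mt-Co2 at 0. Mitochondrial genes made up 29.8% and 30.9% of all FPKM in the first pair, 10.004% in wild type heart 2 and 16.8% to 26.3% in the other 6. Counts of calls, the summed subunit level and the counts of genes without overlap between transgenic and wild type hearts are also given without these 3 hearts, while the other values use all 9. Leaving hearts out can only keep or raise a count without overlap. Such counts therefore cannot show whether the order of the groups depended on these 3 hearts. Whether each library came from 1 animal is not stated in the labels, so the p-values measure the spread between these samples.

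The first comparison asked how complex I transcripts differed between transgenic and wild type hearts under vehicle. Complex I subunit transcripts were lower in the transgenic hearts. The summed level of the 36 core and accessory subunits was 15795 ± 1779 FPKM (SD, n = 4) in wild type hearts. It was 10003 ± 1451 FPKM (SD, n = 3) in transgenic vehicle hearts, a ratio of 0.633. Of the 45 genes, 38 were lower and 0 higher by limma at a Benjamini-Hochberg adjusted p under 0.05. Over all 13487 genes tested, 36% were called, 15.7% of them all as lower and 20.3% as higher. The median log2 difference was -0.57 for the 45 genes and 0.05 for all genes tested. At an unadjusted p under 0.05 there were 42 (46% of all genes). In 37 of the 45, every transgenic vehicle heart was below every wild type heart, against 17.7% of all genes tested. With all 5 transgenic hearts taken, 36 of the 45 were below all 4 wild type hearts, against 15.3%. Without the 3 hearts that stand apart the ratio of the summed levels was 0.693 (10751 ± 923 FPKM, SD, n = 2, against 15505 ± 2059, n = 3), and these counts were 37 (23.8% of all genes) and 36 (20.5%). In a bulk heart sample, fewer cells of a type and less RNA per cell cannot be told apart.

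**Figure D1:**
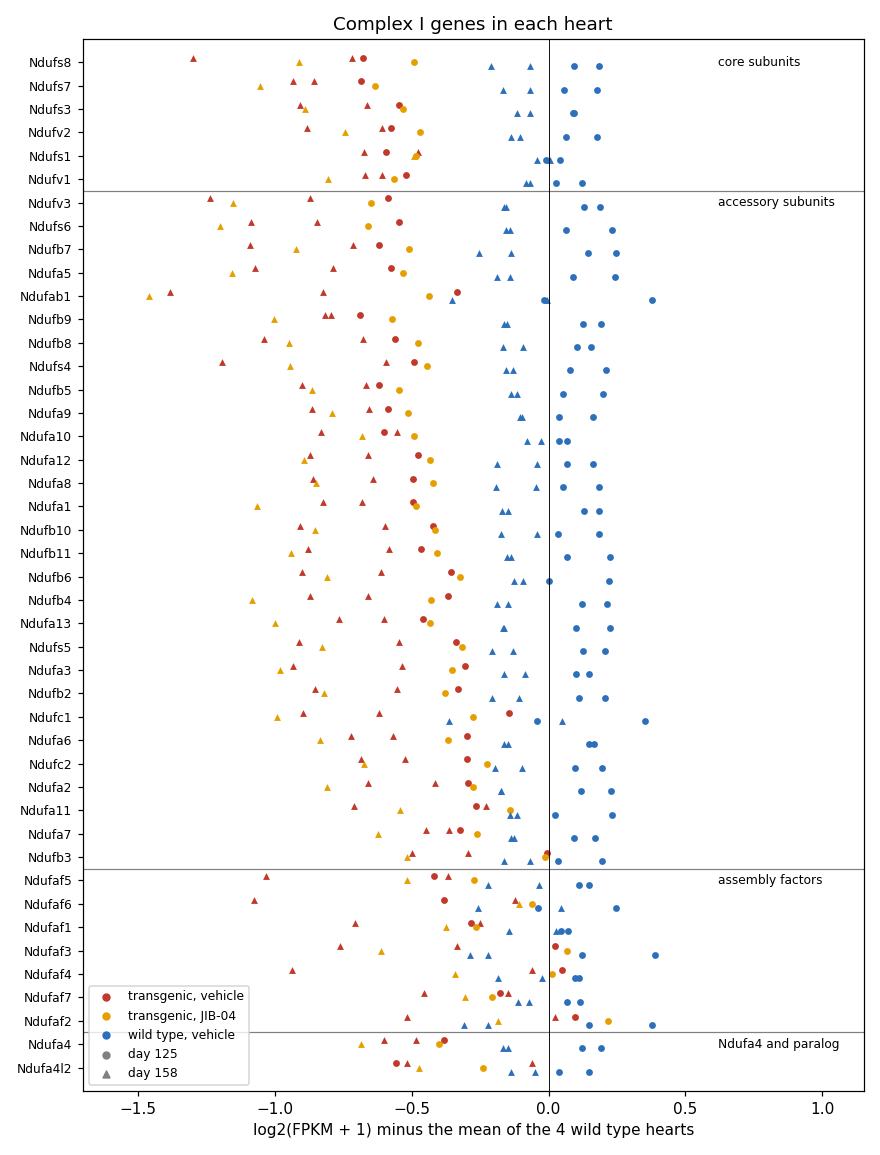
Each row is 1 of 44 of the genes, grouped as core, accessory, assembly and Ndufa4 with its paralog, and each point is 1 heart, coloured by group and shaped by day. The horizontal axis is log2(FPKM + 1) minus the mean of the 4 wild type hearts. For all 6 core subunits drawn the transgenic points lie left of all wild type points, while in 4 of the 7 assembly factor rows the vehicle groups overlap.

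The 7 nuclear core subunits all lie in the matrix arm, and all 7 were lower, with a median log2 difference of -0.65. Ndufs8, which holds iron-sulfur clusters on the path to ubiquinone (chr19:3908870-3912717, GRCm38), was at 210.1, 197, 159.8 and 176 FPKM in wild type hearts 1 to 4, 115, 112 and 74.5 in transgenic vehicle hearts 1 to 3 and 131 and 97.8 in JIB-04 hearts 1 and 2. Every transgenic heart was below every wild type heart. Its log2 difference was -0.84 ± 0.13 (SE), adjusted p = 0.0019 by limma, the largest fall of the 45. Ndufs7, which holds the last cluster before ubiquinone (chr10:80249121-80256794), was at 601, 553, 473 and 507 FPKM in wild type hearts 1 to 4, 330.3, 293 and 278 in transgenic vehicle hearts 1 to 3 and 342 and 255 in JIB-04 hearts 1 and 2. The groups were again apart, with the day 125 heart highest in both transgenic groups. The log2 difference was -0.78 ± 0.07 (adjusted p = 0.00017), the smallest adjusted p among the 45.

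Ndufs3, in the ubiquinone-binding module (chr2:90894634-90904827), was at 334, 333, 299 and 288 FPKM in wild type hearts 1 to 4, 214, 197 and 166 in transgenic vehicle hearts 1 to 3 and 216 and 168 in JIB-04 hearts 1 and 2. Wild type and transgenic hearts did not overlap, and the log2 difference was -0.67 ± 0.08 (adjusted p = 0.00047).

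The NADH-oxidizing module is made by Ndufv1, Ndufv2 and Ndufs1. Ndufv1, which binds NADH and the flavin (chr19:4007497-4012806), was at 519.9, 486, 455 and 450.3 FPKM in wild type hearts 1 to 4, 332, 299 and 312 in transgenic vehicle hearts 1 to 3 and 323 and 273 in JIB-04 hearts 1 and 2. It differed by -0.57 ± 0.06 (adjusted p = 0.00032). Ndufv2, its iron-sulfur partner (chr17:66078795-66101559), was at 437, 404, 352 and 359.5 FPKM in wild type hearts 1 to 4, 259, 253 and 209 in transgenic vehicle hearts 1 to 3 and 279 and 230.4 in JIB-04 hearts 1 and 2. Its difference was -0.65 ± 0.08 (adjusted p = 0.00064), and neither gene overlapped between transgenic and wild type. Ndufs1, the largest subunit of the complex (chr1:63143596-63176833), was at 303, 292, 286 and 295 FPKM in wild type hearts 1 to 4, 194, 211 and 184 in transgenic vehicle hearts 1 to 3 and 210.0 and 209 in JIB-04 hearts 1 and 2. It varied little within groups, without a gap between the days, and differed by -0.58 ± 0.07 (adjusted p = 0.00049).

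**Figure D2:**
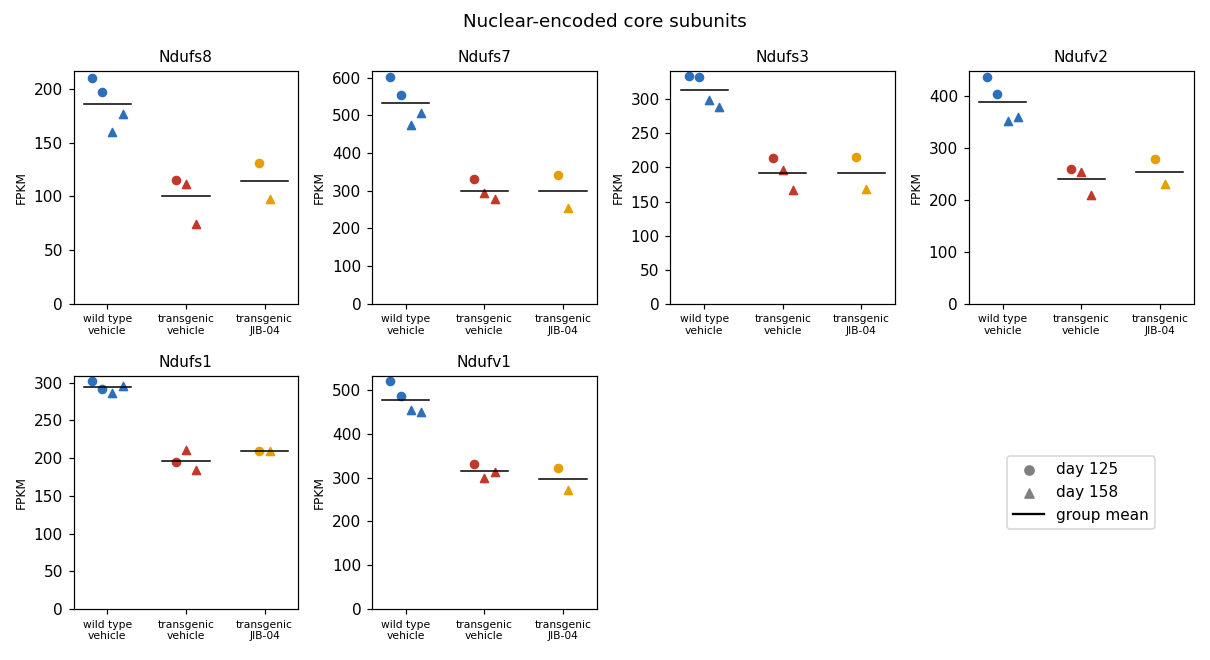
Levels of 6 nuclear core subunits in FPKM, 1 panel per gene, with 1 point per heart (circles day 125, triangles day 158) and a bar at each group mean. In every panel the lowest wild type heart lies above the highest transgenic heart, as for Ndufs8 with 159.8 against 131 FPKM.

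Of the 29 accessory subunits, 28 were lower and 0 higher, with a median log2 difference of -0.59. Those of the matrix arm were lower in 9 of 9 (median -0.67) and those of the membrane arm in 18 of 19 (median -0.57), while Ndufab1 belongs to both arms. The largest falls were of Ndufv3, Ndufs6, Ndufb7 and Ndufa5. Ndufv3, of the NADH-oxidizing module (chr17:31520115-31531326), was at 726, 696, 569.9 and 572 FPKM in wild type hearts 1 to 4, 424, 348 and 270.0 in transgenic vehicle hearts 1 to 3 and 406 and 286 in JIB-04 hearts 1 and 2. The log2 difference was -0.83 ± 0.10 (adjusted p = 0.00045). Ndufs6, a zinc-binding subunit between the modules of the matrix arm (chr13:73319874-73328542), was at 524, 465, 399.9 and 404 FPKM in wild type hearts 1 to 4, 305, 248 and 209.5 in transgenic vehicle hearts 1 to 3 and 282 and 193 in JIB-04 hearts 1 and 2. It differed by -0.76 ± 0.09 (adjusted p = 0.00046). In both genes all transgenic hearts lay below all wild type hearts.

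Ndufb7, on the intermembrane face of the membrane arm (chr8:83566671-83571626), was at 665, 619.8, 470.1 and 510.3 FPKM in wild type hearts 1 to 4, 365, 342 and 263 in transgenic vehicle hearts 1 to 3 and 393 and 295 in JIB-04 hearts 1 and 2, with a difference of -0.75 ± 0.10 (adjusted p = 0.00084). Ndufa5, of the ubiquinone module (chr6:24518666-24528013), was at 899.8, 809, 667 and 689.7 FPKM in wild type hearts 1 to 4, 510.3, 440.1 and 362 in transgenic vehicle hearts 1 to 3 and 526 and 341 in JIB-04 hearts 1 and 2, with a difference of -0.74 ± 0.10 (adjusted p = 0.0008). Neither gene overlapped between transgenic and wild type hearts. Ndufab1, the mitochondrial acyl carrier protein, had a difference of -0.74 ± 0.19 (adjusted p = 0.018), and its groups overlapped, with transgenic vehicle heart 1 (377 FPKM) above wild type heart 4 (372 FPKM).

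Ndufb3, a small membrane arm subunit (chr1:58586384-58595964), was the 1 accessory subunit not called. It was at 244, 219, 191 and 204 FPKM in wild type hearts 1 to 4, 212, 174 and 151 in transgenic vehicle hearts 1 to 3 and 211 and 149 in JIB-04 hearts 1 and 2. Transgenic vehicle heart 1 overlapped wild type hearts 3 and 4. The log2 difference was -0.21 ± 0.09 (adjusted p = 0.099), and it was 0.013 after scaling to equal totals. The calls of Ndufa11 (-0.36, adjusted p = 0.049) and Ndufc1 (-0.47, adjusted p = 0.041) were close to the threshold and were lost in 17 and 16 of 25 other settings. The remaining accessory subunits that were called differed by between -0.72 (Ndufb9) and -0.34 (Ndufa7). They include Ndufs4 (-0.70), whose loss in mice gives a known mitochondrial encephalopathy model, Ndufa13 (-0.55), also called GRIM-19, and Ndufa10 (-0.64), a nucleoside kinase relative.

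**Figure D3:**
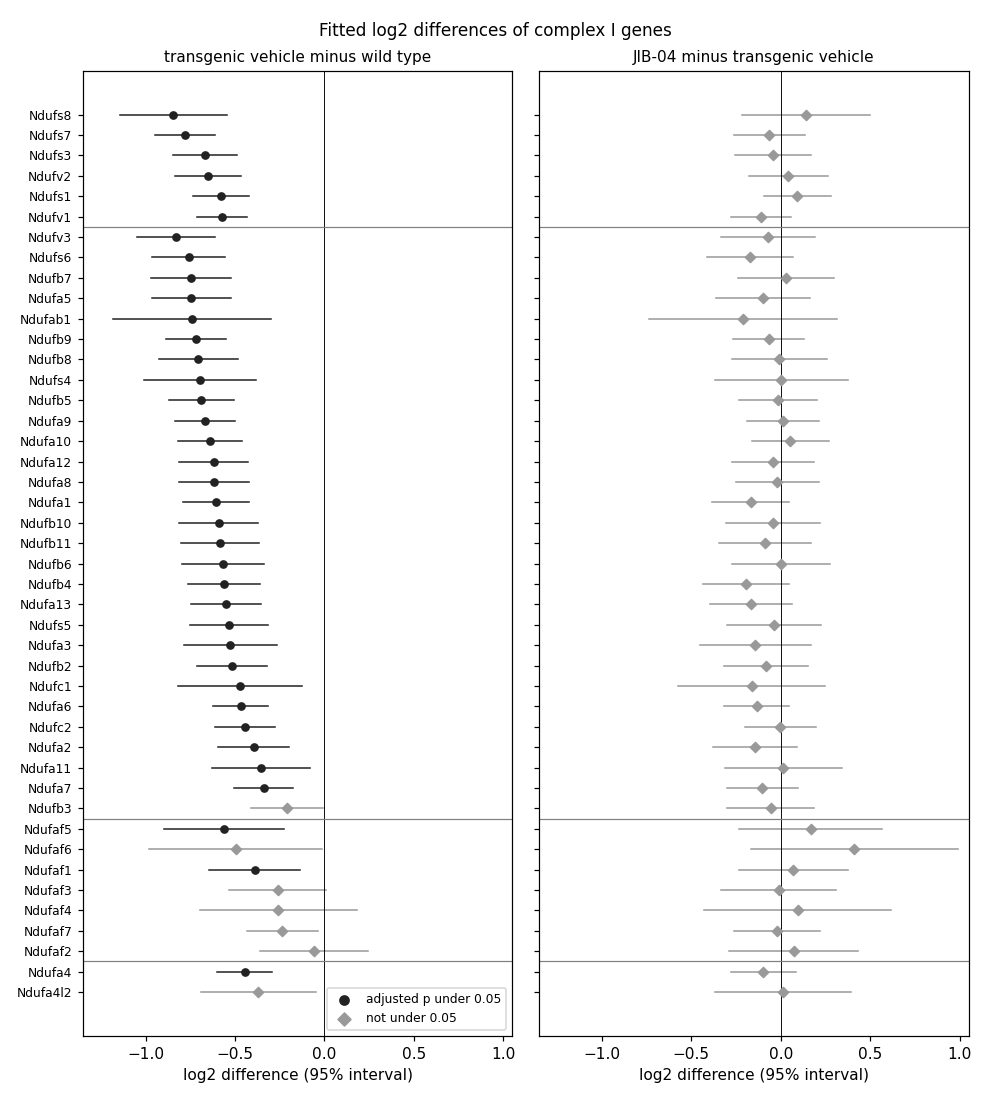
Fitted log2 differences with 95% intervals for 44 of the genes, for transgenic vehicle minus wild type (left) and JIB-04 minus transgenic vehicle (right). Dark circles mark an adjusted p under 0.05, reached by 37 of those drawn on the left and 0 on the right, and grey diamonds mark the others.

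Of the 7 assembly factors, 2 were lower and 0 higher, with a median log2 difference of -0.26 (range -0.56 to -0.06). The difference between them and the subunits was not tested. They are listed at lower levels than the subunits, with summed FPKM of 192 ± 23.8 (SD, n = 4) in wild type and 152 ± 36.2 (SD, n = 3) in transgenic vehicle hearts. Ndufaf5, a hydroxylase of an arginine in Ndufs7 (chr2:140170649-140203689), was at 16.1, 16.5, 12.6 and 14.5 FPKM in wild type hearts 1 to 4, 10.9, 11.3 and 6.75 in transgenic vehicle hearts 1 to 3 and 12.1 and 10.1 in JIB-04 hearts 1 and 2. Its groups did not overlap, and it fell by 0.56 ± 0.15 on the log2 scale (adjusted p = 0.019). Ndufaf1, a member of the complex that assembles the membrane arm (chr2:119655446-119662827), was at 49.5, 48.5, 42.4 and 47.9 FPKM in wild type hearts 1 to 4, 38.4, 39.4 and 28.4 in transgenic vehicle hearts 1 to 3 and 38.9 and 36.04 in JIB-04 hearts 1 and 2. Every transgenic heart was again below every wild type heart, and it fell by 0.39 ± 0.11 (adjusted p = 0.027). Both calls were lost without transgenic vehicle heart 1 and without wild type heart 4, and that of Ndufaf1 also without wild type heart 1 or 2. Both were also lost with equal totals and with no filter on low values. Of 25 other settings, the call of Ndufaf1 was lost in 8 and that of Ndufaf5 in 6.

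Ndufaf6, needed early in assembly (chr4:11051045-11076205), was at 19.0, 23.4, 16.2 and 20.2 FPKM in wild type hearts 1 to 4, 14.8, 17.9 and 8.75 in transgenic vehicle hearts 1 to 3 and 18.7 and 18.1 in JIB-04 hearts 1 and 2. Transgenic vehicle heart 3 was below the other transgenic hearts, the groups overlapped, and the difference of -0.50 ± 0.21 did not pass (adjusted p = 0.1). Ndufaf3, an early factor of the ubiquinone module (chr9:108565537-108567434), was at 28.98, 23.9, 17.8 and 18.7 FPKM in wild type hearts 1 to 4, 22.3, 17.2 and 12.5 in transgenic vehicle hearts 1 to 3 and 23.0 and 14.0 in JIB-04 hearts 1 and 2, with a difference of -0.26 ± 0.12 (adjusted p = 0.12). In this gene the day 125 heart was highest in each group and the groups overlapped. Ndufaf2, a late factor related to Ndufa12 (chr13:108052590-108158625), was at 43.8, 51.5, 33.6 and 31.6 FPKM in wild type hearts 1 to 4, 42.1, 40.1 and 27.2 in transgenic vehicle hearts 1 to 3 and 45.9 and 34.5 in JIB-04 hearts 1 and 2. Its groups overlapped. It was nearest to 0 of the 45, at -0.06 ± 0.13 (adjusted p = 0.76), and lay above 0 (0.16) after scaling to equal totals. Ndufaf4, the partner of Ndufaf3, was at -0.26 (adjusted p = 0.32), and Ndufaf7, a methyltransferase that acts early in assembly, at -0.24 (adjusted p = 0.066).

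Ndufa4 carries a complex I name but is counted with cytochrome c oxidase in current nomenclature (chr6:11900373-11907446). It was the highest of the 45, at 1339, 1278, 1045 and 1058 FPKM in wild type hearts 1 to 4, 899, 839 and 772 in transgenic vehicle hearts 1 to 3 and 889 and 729.6 in JIB-04 hearts 1 and 2. It fell by 0.45 ± 0.07 on the log2 scale (adjusted p = 0.0016), with no overlap between transgenic and wild type hearts. Ndufa4l2, its hypoxia-inducible paralog (chr10:127514939-127517152), was at 22.2, 24.0, 19.6 and 20.9 FPKM in wild type hearts 1 to 4, 14.4, 20.7 and 14.8 in transgenic vehicle hearts 1 to 3 and 18.1 and 15.3 in JIB-04 hearts 1 and 2. Transgenic vehicle heart 2 overlapped the wild type hearts, and the difference was -0.37 ± 0.14 (adjusted p = 0.072).

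Scaling mattered for the size of these counts. Scaling hearts to equal totals moved the median of all genes from 0.05 to 0.23. With this scaling 20 of the 45 were lower and 0 higher, while 40.8% of all genes were called (4489 genes higher and 1009 lower). In the same setting 6 of 7 core subunits were lower. The totals include mitochondrial genes that are listed at 0 in some hearts. Median of ratios gave 41 lower genes (36.1% of all genes called) and quantile normalization 38 (35.4%). Totals without mitochondrial and the 20 highest genes gave 36 (37.3%). With no added scaling, 36 were lower without transgenic vehicle heart 3 (37.4% of all genes called). Without it and JIB-04 heart 2, the count was also 36. Leaving out wild type heart 2 as well gave 35. With a separate mean for each of the 6 pairings of group and day, 15 genes were lower at day 125 (8.33% of all genes called) and 30 at day 158 (16.7%). At day 125 the transgenic vehicle group is 1 heart, taken to vary like the other groups, which also holds for the difference between the days. The difference of the effect between the days passed the test in 0 of 45 (0.00741% of all genes). By unadjusted p under 0.05 it was also 0.

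The mix of subunit transcripts also differed. Each subunit's share of the summed FPKM of the 36 in the same heart is unchanged by scaling a heart with a single factor. Quantile normalization, which shifts genes unequally, was not applied to the shares. In 5 subunits the share was lower in all 5 transgenic hearts than in all 4 wild type hearts, in 8 it was higher, and in 23 it overlapped. For the same ratio, 2.4% of all genes tested were below and 61% above. Without the 3 hearts that stand apart, 7 were lower and 10 higher (4.63% and 65.3% of all genes). The sum of the 36 was itself lower in transgenic hearts (ratio 0.633 under vehicle). A gene outside the 36 with an unchanged level therefore goes above in this ratio. The percentages of all genes thus cannot show whether the counts among the 36 are many or few. The share of Ndufv3 was 4.05% ± 0.09 (SD, n = 4) in wild type, 3.45% ± 0.27 (n = 3) in transgenic vehicle and 3.46% ± 0.08 (n = 2) in JIB-04 hearts. Ndufs6, Ndufs7, Ndufa5 and Ndufb8 were the other 4 with a lower share. The share of Ndufb3 was 1.36% ± 0.04 in wild type, 1.79% ± 0.07 in transgenic vehicle and 1.80% ± 0.04 in JIB-04 hearts. Ndufa7, Ndufa11, Ndufa2, Ndufc2, Ndufa6 and Ndufb2 were among the others with a higher share, while the level of each was lower (the call of Ndufa11 depended on the setting, above).

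**Figure D4:**
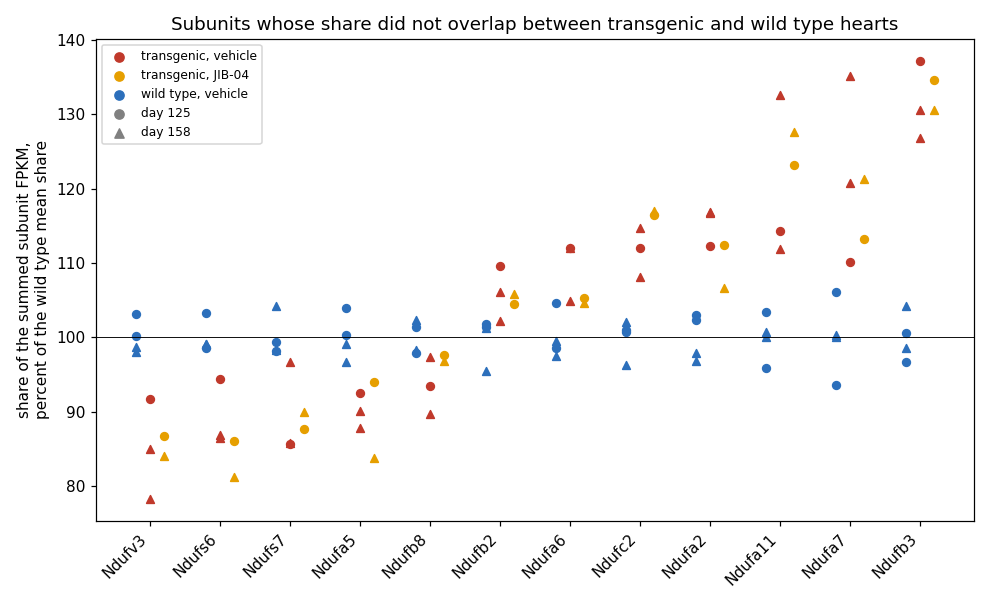
For 12 of the 13 subunits whose share of the summed subunit FPKM did not overlap, each point is 1 heart's share as a percent of the wild type mean share (circles day 125, triangles day 158). Transgenic points lie below the wild type points for the 5 subunits on the left and above them for the 7 on the right, up to Ndufb3.

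Short promoter letters were searched in all members with a window, called or not, in RefSeq windows of 250 bases before to 50 after each start (GRCm38.p6), on both strands. Windows were at hand for 39 of the 45 genes. The letters AAGATGGCG, a match to the YY1 element, were in 5 of 39 (12.8%), against 1.64% of 27025 genes with a window. In all 5 the letters lay on the gene's strand 23 to 36 bases after the start, and their ATG was the annotated start codon, so the letters span the start of translation. The stretches of 30 bases are shown because each holds that codon, with the searched letters in capitals, 5′ to 3′ on the gene's strand.
Ndufs7: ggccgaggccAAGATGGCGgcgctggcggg
Ndufs6: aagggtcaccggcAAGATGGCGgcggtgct
Ndufs4: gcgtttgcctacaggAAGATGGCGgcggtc
Ndufa9: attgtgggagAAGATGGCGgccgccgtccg
Ndufc1: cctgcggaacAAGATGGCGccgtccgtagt

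They lie at chr10:80249463-80249492 (plus strand), chr13:73328433-73328462 (minus strand), chr13:114388045-114388074 (minus strand), chr6:126849096-126849125 (minus strand) and chr3:51408914-51408943 (minus strand). All 5 genes were lower in transgenic vehicle hearts, with a median log2 difference of -0.70, against -0.56 in the 34 genes with a window and without the letters, 29 of them lower. The letters GCGCATGC, the core of the NRF1 element, were also in 5 of 39 genes (12.8%, against 3.05% of all). They are printed because the 5 include both subunits and assembly factors.
Ndufa8: cgctggagacGCATGCGCagatggtaccgg
Ndufa6: ccgcggtagaGCATGCGCattgcagagccc
Ndufa11: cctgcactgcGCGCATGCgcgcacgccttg
Ndufaf4: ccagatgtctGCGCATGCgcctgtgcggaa
Ndufaf5: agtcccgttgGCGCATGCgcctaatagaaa

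These lie at chr2:36049327-36049356 (minus strand), chr15:82354355-82354384 (minus strand), chr17:56717692-56717721 (plus strand), chr4:24897960-24897989 (plus strand) and chr2:140170652-140170681 (plus strand). The capitals in Ndufa8 and Ndufa6 are the reverse complement. In Ndufa11, Ndufaf4 and Ndufaf5 the capitals and the bases after them also hold the reverse complement, overlapping. The window of Ndufaf4 holds the letters again, outside the printed stretch. The 5 genes had a median log2 difference of -0.47, 4 of them called lower. The ETS letters ACTTCCGG were in Ndufs3 alone (2.56% of 39, against 4.31%), and the letters TCAAGGTCA of the estrogen-related receptor element were in 0 of 39 (0.466% of all). These matches are descriptions of letters in a window and show no binding.

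The other genes of complex I gave the following. Of 11 further assembly factors with other names, 5 were lower and 0 higher (15.7% of all genes were called lower), with a median of -0.30. They were Ecsit at -0.68 (adjusted p = 0.00064), Nubpl at -0.49 (adjusted p = 0.015), Foxred1 at -0.39 (adjusted p = 0.0043), Timmdc1 at -0.36 (adjusted p = 0.027) and Acad9 at -0.29 (adjusted p = 0.018). Ecsit, a partner of Ndufaf1, was at 64.6, 64.3, 54.1 and 58.3 FPKM in wild type hearts 1 to 4, 36.8, 39.4 and 33.5 in transgenic vehicle hearts 1 to 3 and 43.8 and 36.1 in JIB-04 hearts 1 and 2. Its groups did not overlap. The 7 mitochondrially encoded subunits were lower in 7 of 7, with a median of -0.57, from mt-Nd3 at -1.19 (adjusted p = 0.0031) to mt-Nd4 at -0.46 (adjusted p = 0.0011). The hearts that stand apart were the extremes for mt-Nd3. Transgenic vehicle heart 3 (5954 FPKM) and JIB-04 heart 2 (5641) lay below the other transgenic hearts (9870 to 11417). Wild type heart 2 (27764) lay above the other wild type hearts (16984 to 20737). For mt-Nd1, which closes the ubiquinone site from the membrane side, the levels were 6612, 6404, 6008 and 6303 FPKM in wild type hearts 1 to 4, 3977, 3823 and 3784 in transgenic vehicle hearts 1 to 3 and 3813 and 3771 in JIB-04 hearts 1 and 2. The transgenic hearts varied little and all were below the wild type hearts.

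Cell type markers moved as well, and their part in the fall of the complex I genes was not tested. Of 13 cardiomyocyte markers, 6 were lower and 0 higher (median -0.20), and their summed level was 25493 to 29709 FPKM in wild type, 21402 to 23884 in transgenic vehicle and 20928 to 22963 in JIB-04 hearts. Among 10 fibroblast markers, 4 were higher and 1 lower, with sums of 335 to 423, 709 to 724 and 762 to 771 FPKM in the same order. Of 9 endothelial markers, 6 were lower and 1 higher (357 to 396, 268 to 379.5 and 221 to 265 FPKM). Of the 8 macrophage markers 7 were tested and 0 called by limma, with Lyz2 (0.33, adjusted p = 0.081) the 1 gene at an unadjusted p under 0.05, and sums of 134 to 183, 158 to 196 and 163 to 186 FPKM. Among 7 smooth muscle and pericyte markers, 2 were higher and 3 lower (183 to 218, 117 to 157 and 125 to 133 FPKM). Of 5 skeletal muscle markers 2 were tested and 1 was lower (1221 to 1417, 490.2 to 723 and 492 to 592 FPKM), with Myh1 and Myh4 at 0 in some hearts. The lower gene was Ckm (-1.05), while Tnnt3 was not called. Myh1, Myh4 and Actn3 did not pass the filter on low values, so these sums rest mainly on Ckm and Tnnt3. They are not a measure of skeletal muscle content. Of 3 brown fat markers 1 was tested and was higher (18.4 to 20.9, 27.7 to 34.9 and 30.5 to 41.8 FPKM), and Ucp1, the defining gene, was listed at 0 in every heart.

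The second comparison asked whether JIB-04 changed complex I transcripts in transgenic hearts. No difference was detectable. The summed level of the 36 subunits was 9981 ± 2233 FPKM (SD, n = 2) with JIB-04, against 10003 ± 1451 (SD, n = 3) with vehicle. By limma 0 of 45 genes were called (0.00741% of all genes tested, 1 gene) and 0 had an unadjusted p under 0.05 (3.29% of all genes). The count by adjusted p was 0 in all 25 other settings too. The median log2 difference was -0.04 for the 45, 0.01 for the core, -0.07 for the accessory subunits and 0.07 for the assembly factors, against -0.01 for all genes. For the core subunits the 95% intervals ran from -0.28 to 0.50 over all 7.

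The 5 genes with the smallest p were Ndufb4, Ndufa1, Ndufa6, Ndufa13 and Ndufaf6, each with an adjusted p of 0.987. Ndufb4, a membrane arm subunit, was at 131, 123, 99.1 and 102 FPKM in wild type hearts 1 to 4, 87.5, 71.2 and 61.4 in transgenic vehicle hearts 1 to 3 and 83.8 and 52.8 in JIB-04 hearts 1 and 2. JIB-04 heart 2 was the lowest of all hearts, while heart 1 lay within the vehicle range, and the difference was -0.19 (95% interval -0.43 to 0.05). The differences were -0.17 (95% interval -0.39 to 0.05) for Ndufa1, -0.13 (95% interval -0.31 to 0.05) for Ndufa6 and -0.17 (95% interval -0.40 to 0.07) for Ndufa13. These are all membrane or matrix arm accessory subunits. Ndufaf6 differed by 0.41 (95% interval -0.16 to 0.99). It was the 1 gene of 45 with both JIB-04 hearts (18.7 and 18.1 FPKM) above all vehicle hearts, of which heart 2 was at 17.9 FPKM. Of all genes tested, 5.55% showed this order, and in 0 of 45 were both JIB-04 hearts below all vehicle hearts (6.88% of all genes). Within day 125, JIB-04 heart 1 was above transgenic vehicle heart 1 in 32 of 45 (59.7% of all genes). At day 158 the difference went the other way in most genes, with JIB-04 heart 2 below the mean of transgenic vehicle hearts 2 and 3 in 35 of 45. The median log2 difference of the 45 was -0.10 at day 158 and 0.04 at day 125. Over all genes tested it was -0.0455 and 0.039, so the median changed direction there as well. With 1 JIB-04 heart a day, neither day's difference has a replicate.

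Against wild type vehicle, the JIB-04 hearts were lower in 35 of 45 genes and higher in 0 (32.3% of all genes called, 14.8% as lower). This comparison shares its wild type hearts with the first. It gave 7 of 7 core subunits (median -0.68), 27 of 29 accessory subunits (median -0.66), 0 of 7 assembly factors and Ndufa4 (-0.54). The accessory subunits that were not called were Ndufb3 (-0.27, adjusted p = 0.074) and Ndufa11 (-0.34, adjusted p = 0.088). Side by side, Ndufs8 was -0.84 with vehicle and -0.70 with JIB-04, Ndufv3 -0.83 and -0.90, Ndufs6 -0.76 and -0.93, and Ndufaf6 -0.50 and -0.08. Ndufaf2 was the 1 gene with a fitted difference above 0 (0.015, adjusted p = 0.95). Taken by day, with 1 JIB-04 heart on each day taken to vary like the other groups, 12 were lower at day 125 (8.03% of all genes called) and 26 at day 158 (11%). In 38 of 45 both JIB-04 hearts were below all wild type hearts (21.7% of all genes), and 38 also without the 3 hearts that stand apart (28.1%). Without JIB-04 heart 2, 23 genes were lower (12.8% of all genes called), without it and transgenic vehicle heart 3, 33 (22.3%), and without wild type heart 2 as well, 31 (17.5%). The lone JIB-04 heart is there taken to vary in the same way. The mitochondrially encoded subunits were lower in 7 of 7 here and in 0 of 7 between JIB-04 and vehicle.

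Levels at day 158 were below those at day 125 in most genes, without passing the test. The fitted difference of day 158 minus day 125 was below 0 in all 45 genes (56.01% of all genes tested). It was below 0 in 43 after quantile normalization and in 43 after scaling without mitochondrial and the 20 highest genes. Its median was -0.33 (-0.24 core, -0.35 accessory, -0.26 assembly), against -0.03 for all genes. By limma 0 of 45 passed in either direction (0.378% of all genes, 0.222% as lower), and the smallest adjusted p was 0.055, for Ndufa6. At an unadjusted p under 0.05 the count was 37, against 18.8% of all genes. Among wild type hearts, both day 125 hearts were above both day 158 hearts in 41 of 45 genes (27.1% of all genes). Wild type heart 1 (day 125) was the highest of the 4 in 38 (24.3%). JIB-04 heart 2 (day 158) was below JIB-04 heart 1 (day 125) in 45 of 45 (61.7%). Transgenic vehicle heart 3 (day 158) was the lowest of its group in 43 (43.1%).

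Ndufa6, a small accessory subunit of the matrix arm, was at 527, 521, 424 and 419.8 FPKM in wild type hearts 1 to 4, 382, 317 and 285 in transgenic vehicle hearts 1 to 3 and 364 and 263 in JIB-04 hearts 1 and 2. The day 125 hearts were highest in each group. Ndufaf3 had the largest such difference among the assembly factors, -0.57 (adjusted p = 0.068), and Ndufab1 the largest of the 45, -0.64 (adjusted p = 0.11). Ndufs1 was nearest to 0, at -0.01. The mitochondrially encoded subunits had a median of 0.02 and 0 of 7 called. The count of nuclear genes depended on single hearts. Of the 45, 17 were lower at day 158 without transgenic vehicle heart 2 (2.14% of all genes called) and 3 without heart 3 (0.978%). Without transgenic vehicle heart 3 and JIB-04 heart 2 the median was -0.23 with 0 called.

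**Figure D5:**
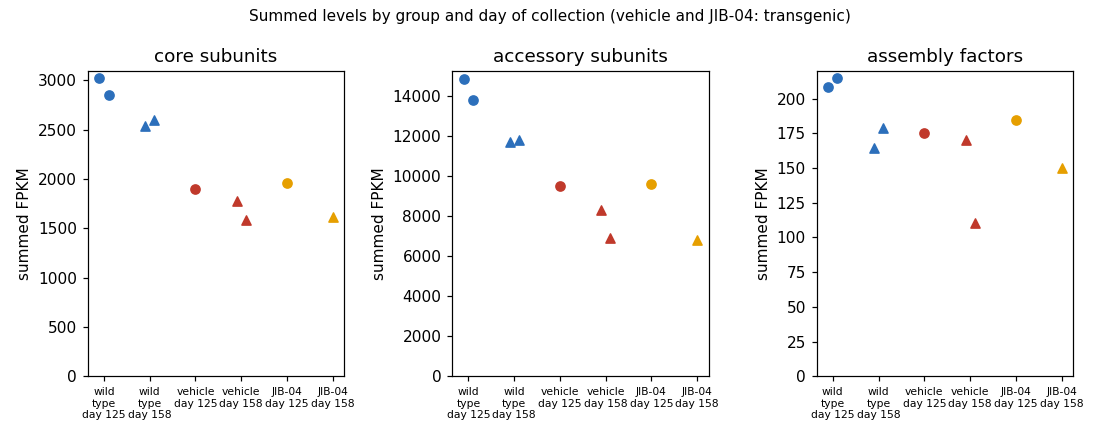
Summed FPKM of the core subunits, the accessory subunits and the assembly factors in each heart, by group and day of collection (circles day 125, triangles day 158). Within each group the day 125 hearts lie above the day 158 hearts in all 3 panels, and for both kinds of subunit every transgenic heart lies below every wild type heart.

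The genes outside the 45 whose log2 levels went most closely with the mean of the 7 core subunits over the 9 hearts were Atp5o (Pearson r = 0.998), Suclg1 (0.997), Atp5g1 (0.996), Uqcrc2 (0.995) and Atp5f1 (0.995). Atp5o, Atp5g1 and Atp5f1 encode subunits of ATP synthase, Uqcrc2 one of complex III and Suclg1 one of succinyl-CoA ligase. The hearts share their libraries and the difference between transgenic and wild type, so these values are a description. Their log2 differences between transgenic vehicle and wild type were from -0.79 (Suclg1) to -0.59 (Uqcrc2).

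Some levels cannot be assigned to 1 locus with certainty. The kit does not keep strand, and 19 of the 45 genes share exon sequence with another annotated gene, mostly on the opposite strand (Ndufs1 with Eef1b2, Ndufs3 with Kbtbd4, Ndufaf3 with Impdh2). Near-identical copies elsewhere in the genome (at least 95% identity over 200 bases) exist for 8 genes. Those listed above 1 FPKM include Gm15920, a processed pseudogene copy of Ndufa12, at 52.1 to 121 FPKM, and Gm4459, a copy of Ndufab1, at 44.3 to 105 FPKM. Reads of Ndufa12, Ndufab1, Ndufb11, Ndufs3 and Ndufs5 may thus be divided with a copy.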

How the data were processed

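Libraries that do not keep strand were made from Trizol-extracted RNA of 9 hearts, per the labels' protocols. The submitters' processing notes name STAR 2.7.1a, Picard, GATK 4.1.2, Cufflinks 2.2.1 and the build GRCm38, without assigning steps. Per the file headers, the authors deposited log2 FPKM values, 1 table per heart. The added constant is not stated and was taken as 1, since the lowest value was exactly 0. No scaling between hearts was added. The series' design has dosing to day 158, but 4 hearts carry the label day 125, which was kept.

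Groups and days came from the labels. Genes reaching 1 FPKM in 2 or more hearts (13487) entered 1 limma 3.58.1 fit in R 4.3.3 on log2(FPKM + 1), with group and day as terms, all 9 hearts and an eBayes intensity trend, leaving 5 residual degrees of freedom and 3.07 from the prior. P-values are two-sided, and Benjamini-Hochberg adjustment ran over all 13487 genes, at 0.05. Log2 differences understate changes of low genes. Same-numbered hearts did not deviate together in every pair, so the numbers were not used as pairs. Positions count from 1. Exons and copies came from GENCODE M21 (blastn 2.17.0), promoter windows from RefSeq.

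Members, lists and tests were chosen with earlier results of these data known. Named were the core subunits, of which 1 is not reported here, the 4 largest differences and the one nearest 0 in each other class, Ndufa4, Ndufa4l2, the 5 smallest p for JIB-04, called genes of the other lists and the 5 genes most like the core. Genes named for a share, a motif, a copy or a setting were chosen after their values were seen. Alternatives were other pseudocounts, filters, scalings and variance settings, no day term, a replicate block, fewer groups, day 158 alone and each heart left out. Leaving out the 2 or 3 hearts that stand apart was added after the data were seen.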

Additional observations from a re-analysis of the deposited data

How the results depend on the processing

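No gene of the 45 was called higher in any comparison with wild type under any setting, and 0 were called between JIB-04 and transgenic vehicle. For transgenic vehicle against wild type, the count of lower genes was 38. It was 20 after scaling to equal totals (40.8% of all genes called) and 12 with day 158 hearts only (9.33%), where fewer samples were fitted. With the other scalings it was 41 (median of ratios, 36.1%), 38 (quantile normalization, 35.4%) and 36 (totals without mitochondrial and the 20 highest genes, 37.3%). With each heart left out in turn it ran from 31 (without transgenic vehicle heart 1, 24.9%) to 41 (without heart 2, 33.6%). For JIB-04 against wild type the count was 35. It was 8 with day 158 hearts only, where fewer samples were fitted, and 23 to 40 with each heart left out. The 23 was without JIB-04 heart 2, with its share of all genes given above. For the others no share is given, so a change in calls over all genes is not told apart. For day 158 against day 125 the count was 0. It was 1 with median of ratios, 1 with robust variance and 0 to 17 with each heart left out. The 17 were without transgenic vehicle heart 2 and 3 were without heart 3, with their shares of all genes given above. The cause was not tested. The difference of the effect between days gave 0 calls in every setting run.

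Signs changed only among genes that were not called. For transgenic vehicle against wild type, Ndufaf2 was at 0.16 and Ndufb3 at 0.013 with equal totals. Ndufaf2 was at 0.0195 with day 158 hearts only, from -0.21 (without transgenic vehicle heart 2) to 0.0605 (without heart 3) with each heart left out, at 0.0605 without heart 3 and JIB-04 heart 2, and at 0.14 without wild type heart 2 as well, where Ndufaf4 was at 0.0064. For JIB-04 against wild type, Ndufaf6 was at 0.071 with equal totals and 0.070 with those 3 hearts left out. Ndufaf2 was at 0.015, and at -0.028 with median of ratios, -0.0082 with quantile normalization, -0.26 with the replicate block, -0.011 without JIB-04 heart 2, -0.013 without wild type heart 1 and -0.019 without wild type heart 4, the last the lowest of the values with each heart left out, which reached 0.0775. The replicate block, whose numbers did not pair the hearts (correlations of deviations from -0.186 to 0.432), gave 41 lower genes for both transgenic groups against wild type and 0 between them. In that setting 30.2% of all genes were called for transgenic vehicle against wild type. Over all genes, calls were 2739 higher and 2123 lower, against 4489 and 1009 with equal totals and 2336 and 2536 with median of ratios. Read depth is unknown, so no counting error is given.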
